A study of Homo sapiens with 8 samples.

Results

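The 37 genes described here encode the transporters and enzymes that take glucose to lactate, the enzymes of the pentose phosphate route and the regulators beside them. They were chosen by symbol from a fixed list of names, with earlier results of these data known. All 37 are among the 13453 genes of the expression table. RNA-seq had been performed on Jurkat cells, a human T-cell acute lymphoblastic leukemia (T-ALL) line, with or without CBAP, the protein encoded by TMEM102. There were 4 conditions with 2 libraries each, in 2 sets. In the shRNA set, sh-Ctrl cells carried a non-targeting short hairpin RNA, and CBAP knockdown cells carried one against CBAP. Both had been made with lentivirus and kept as stable clones. In the CRISPR set, CBAP knockout cells had been edited with CRISPR/Cas9 and expressed GFP, and CBAP-reconstituted cells were knockout cells given back CBAP fused to GFP. All cells of the CRISPR set thus carried the edit, the controls included, and knockout cells had been grown from sorted single cells. The sources used here do not say whether the 2 libraries of a condition came from separate clones or cultures, so p-values measure only the spread between these libraries, which may be technical.

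Glycolysis splits glucose into a pair of three-carbon sugars and oxidizes them to pyruvate, with a small gain of ATP. Proliferating T cells and T-cell leukemias are known to send much of that pyruvate to lactate even when oxygen is present. The pentose phosphate route branches off at glucose 6-phosphate and yields NADPH and ribose 5-phosphate, which PRPP synthetases activate for nucleotide synthesis.

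Values are FPKM, fragments scaled for transcript length and for the number of mapped fragments in a library. No read counts were used, so the depth behind each value is unknown. The target itself measured 4.07 and 4.74 FPKM in the sh-Ctrl libraries and 2.69 and 2.89 in the CBAP knockdown libraries (log2 change -0.51, SE 0.0964, limma adjusted p = 0.0287). TMEM102 was listed at 0 in each of the 4 CRISPR-set libraries, so its level does not tell CBAP-reconstituted from CBAP knockout cells. Of 14 T-cell markers, 13 were in the table and 12 had a mean of at least 1 FPKM. Their sum was 1513 and 1523 FPKM in the CBAP-reconstituted libraries, 1978 and 2420.4 in the CBAP knockout libraries and from 1704 to 1870.1 in the shRNA set. COL1A1, the fibroblast marker in the table, was at 2.13 and 2.15 FPKM in CBAP-reconstituted, 1.07 and 1.13 in CBAP knockout and from 1.13 to 1.51 in the shRNA-set libraries. The 2 B-cell markers in the table, CD79A and BLK, summed to between 3.90 and 4.18 FPKM in the reconstituted libraries and to between 22.5 and 32.3 in the other 6, and the part of these marker differences in the results was not tested. In bulk RNA, fewer cells of a type and less RNA per cell cannot be told apart.

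All 37 genes were detected in every library. Together they made up 1.61% to 1.99% of the summed FPKM of a library. Levels spanned a wide range, from GAPDH, which oxidizes glyceraldehyde 3-phosphate, at a mean of 2363 FPKM over the 8 libraries, to PFKM, the muscle-type phosphofructokinase, at 0.848. Next in order after GAPDH came LDHB at 922 FPKM and ENO1 at 836, whose ranges over the 8 libraries overlapped. PKM at 519 and ALDOA at 482 FPKM also overlapped. The lowest levels after PFKM were those of PFKFB4 at 2.50, SLC2A3 at 3.30, ENO3 at 3.72 and PFKFB2 at 3.92 FPKM.

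**Figure D1:**
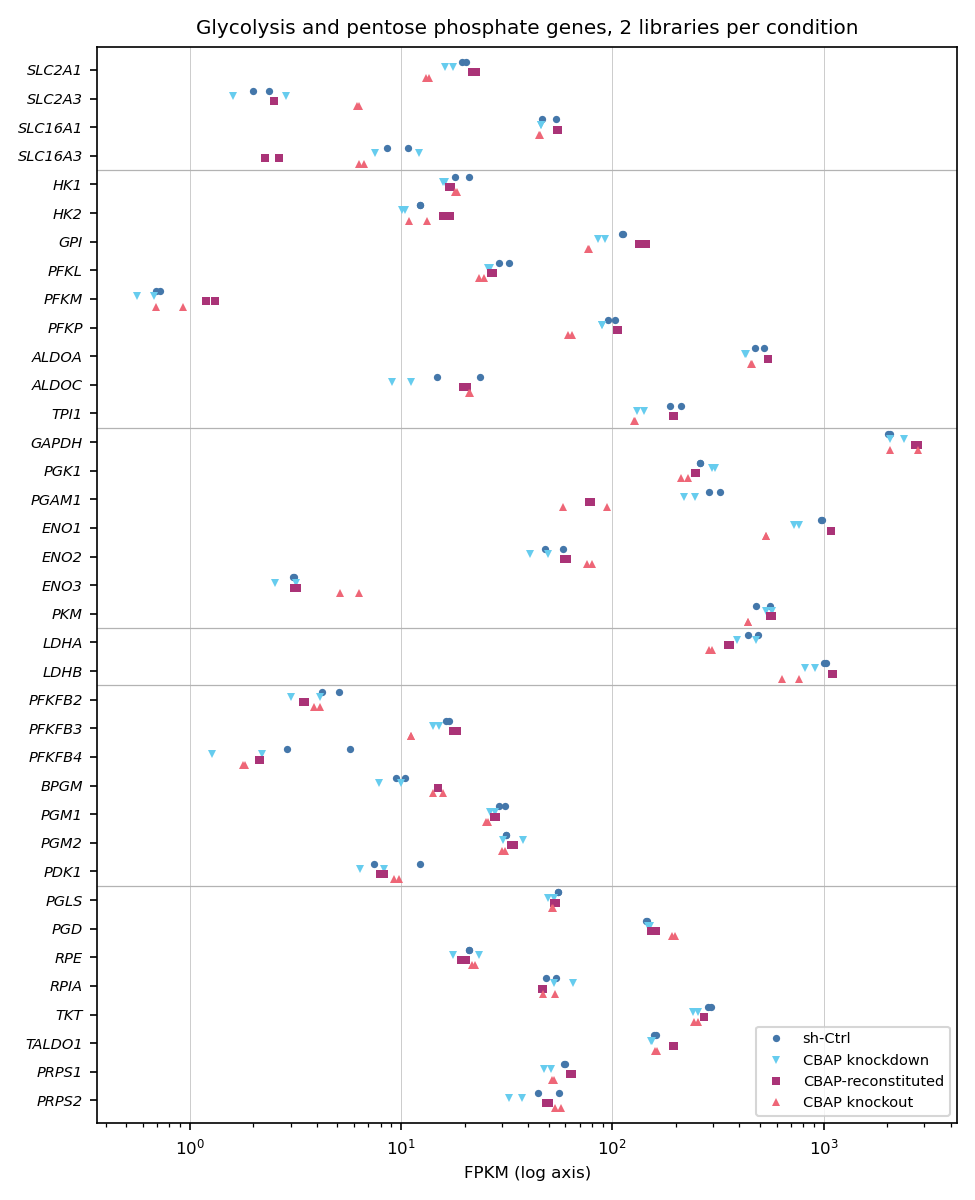
FPKM (log axis) of the 37 genes in each of the 8 libraries, with 1 point per library, grouped by step from transporters at the top to pentose phosphate and PRPP enzymes at the bottom. ENO1 sat at 536 and 532 FPKM in the CBAP knockout libraries against 1087 and 1086 in the CBAP-reconstituted libraries, and GAPDH was the highest gene in every library.

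The levels were compared on the log2(FPKM + 1) scale with limma, which understates changes of the low genes, and a gene was called changed at a Benjamini-Hochberg adjusted p under 0.05 over the 11427 genes with a mean of at least 1 FPKM. This left 36 of the 37 genes to test, without PFKM. In the shRNA set, 5 of 36 (13.9%) were called, against 12.3% of all tested genes. All 5 were lower in CBAP knockdown cells, against 8.70% of all genes called lower, and none was higher, against 3.62%. The 5 were GPI, TPI1, ENO1, TKT and PRPS1. In the CRISPR set, 18 of 36 (50.0%) were called, against 49.9% of all tested genes. Of these, 14 (38.9%) were lower in CBAP knockout cells, against 25.9% of all genes, and 4 (11.1%) were higher, against 23.9%. The shares called in either direction were near the background in both sets.

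The 36 genes had a median change of -0.19 within the shRNA set, where all tested genes had -0.06, and of -0.15 within the CRISPR set, where all tested genes had 0.00. A change below 0 in both sets was seen for 20 of the 36 (55.6%), against 33.3% of all tested genes. In 13 of 36 (36.1%), all 4 CBAP-deficient libraries lay below all 4 CBAP-expressing ones, against 10.3% of all tested genes. These were SLC2A1, SLC16A1, GPI, PFKL, PFKP, ALDOA, TPI1, ENO1, LDHB, PFKFB3, PGLS, TKT and PRPS1. Both shares used FPKM without further normalization and were not computed after it. All tested genes span all levels, and genes of like level were not compared apart. Summed FPKM was 431057 and 434742 in CBAP-reconstituted, 383898 and 392806 in CBAP knockout, 385687 and 389679 in sh-Ctrl, and 362082 and 389329.6 in CBAP knockdown libraries. The genes were chosen with earlier results of these data known, so the shares only describe them. After quantile normalization the medians of the 36 genes were -0.13 and -0.03. The calls then split into 3 lower and 1 higher in the shRNA set, against 830 and 845 of all 11427 tested genes. In the CRISPR set they split into 9 lower and 6 higher, against 2861 and 2935 of all 11427. With each library centred on its median the split was 6 and 1 in the shRNA set, against 885 and 709 of all. In the CRISPR set it was 18 and 4, against 3647 and 2580.

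The calls of the shRNA set depended on single libraries, also those of the other set, because all 8 share 1 estimate of the spread. Without sh-Ctrl replicate 2, fewer of all tested genes but more of the 36 were called in the shRNA set. Without CBAP knockdown replicate 1, more of all tested genes but no more of the 36 were called there. In the other fits that left out a library, both numbers moved in the same direction. The number called over all tested genes in the CRISPR set also varied with the library left out. Without either CBAP-reconstituted library none of the 36 was called by limma, with 13 at an unadjusted p under 0.05 each time. The 5 genes then had adjusted p from 0.0506 to 0.117. The shRNA set had fewer calls among the 36 without sh-Ctrl replicate 1 or either CBAP knockout library. It had more without CBAP knockdown replicate 2. With each library left out, the number called in the CRISPR set moved in the same direction for the 36 genes as for all tested genes.

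**Figure D2:**
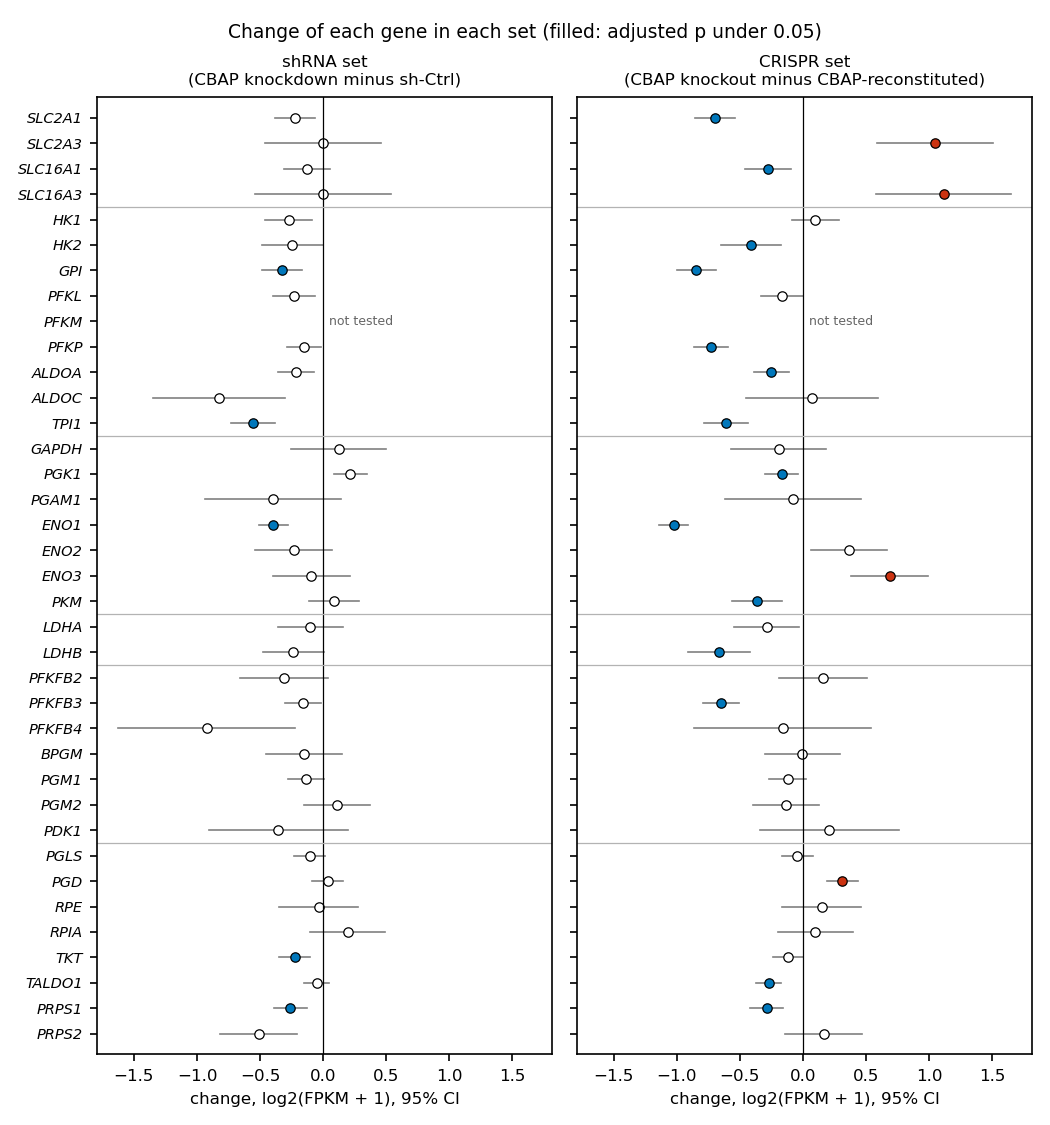
Change of each gene on the log2(FPKM + 1) scale in the shRNA set (left) and the CRISPR set (right), with 95% confidence intervals from the limma fit; filled points passed the adjusted threshold, blue for lower and red for higher in CBAP-deficient cells. The 5 filled points on the left all lie below 0, and the 18 on the right are 14 below and 4 above 0, of which ALDOA and PGK1 lie above 0 after quantile normalization.

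The genes called lower in both sets were GPI, TPI1, ENO1 and PRPS1, 4 of 36 (11.1%) against 4.03% of all tested genes. TPI1, triosephosphate isomerase, interconverts the pair of three-carbon sugars made by aldolase, and lies at chr12:6976283-6980112 (GRCh37, plus strand). It measured 212 and 188 FPKM in sh-Ctrl, 141 and 130 in CBAP knockdown, 195 and 194 in CBAP-reconstituted and 128 and 127 in CBAP knockout libraries. The deficient libraries were below the expressing ones in each set, with no overlap. TPI1 fell by 32.2% in the shRNA set (log2 change -0.55, SE 0.0708, adjusted p = 0.0114) and by 34.6% in the CRISPR set (log2 change -0.61, SE 0.0708, adjusted p = 0.00136). Its changes in the sets were not called different (difference 0.05, 95% CI -0.19 to 0.30, adjusted p = 0.706).

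ENO1, alpha-enolase, makes phosphoenolpyruvate, and lies at chr1:8921059-8939249 (minus strand). It measured 982 and 977 FPKM in sh-Ctrl and 724 and 766 in CBAP knockdown libraries. Levels were 1087 and 1086 FPKM in CBAP-reconstituted and 536 and 532 in CBAP knockout libraries. ENO1 fell by 24.0% in the shRNA set (log2 change -0.40, adjusted p = 0.00954) and by 50.9% in the CRISPR set (log2 change -1.02, adjusted p = 5.91e-05). The fall was larger in the CRISPR set (difference of the changes 0.63, SE 0.0656, adjusted p = 0.00197). After quantile normalization the CRISPR-set change was -0.62 (adjusted p = 0.000488), and the difference between the sets was no longer called (0.16, adjusted p = 0.142).

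GPI, glucose 6-phosphate isomerase, lies at chr19:34850385-34893318 (plus strand). It measured 111 and 112 FPKM in sh-Ctrl, 85.4 and 92.6 in CBAP knockdown, 145 and 134 in CBAP-reconstituted and 77.6 and 76.4 in CBAP knockout libraries. It fell by 20.3% in the shRNA set (adjusted p = 0.0302) and by 44.7% in the CRISPR set (adjusted p = 0.000308), and the changes differed (0.52, SE 0.0891, adjusted p = 0.00899). PRPS1, a PRPP synthetase, lies at chrX:106871658-106895223 (plus strand). Its levels were 58.9 and 59.7 FPKM in sh-Ctrl, 47.6 and 51.3 in CBAP knockdown, 64.7 and 63.4 in CBAP-reconstituted and 51.8 and 52.8 in CBAP knockout libraries. PRPS1 fell by 16.6% (adjusted p = 0.0333) and by 18.4% (adjusted p = 0.00643), and the difference between these changes was 0.03 (95% CI -0.15 to 0.21). All 4 of these genes missed the threshold in the shRNA set without either CBAP-reconstituted library, with adjusted p of at least 0.0506. GPI and PRPS1 also missed it without either CBAP knockout library or either sh-Ctrl library, with adjusted p from 0.0702 to 0.0865. PRPS1 missed it in the CRISPR set without CBAP-reconstituted replicate 1 (adjusted p = 0.0526). Quantile normalization ended the CRISPR-set call of PRPS1 (-0.10, adjusted p = 0.086) and the shRNA-set calls of PRPS1 (-0.15, adjusted p = 0.06) and GPI (-0.24, adjusted p = 0.055). It kept the 4 calls of TPI1 and ENO1. Exons of TPI1 overlap those of SPSB2 and exons of ENO1 those of ENO1-AS1 on the other strand, and GENCODE holds 4 pseudogenes named for each of TPI1 and ENO1, so part of their reads cannot be told apart from these.

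Upstream sequences from RefSeq were searched for motifs on both strands in the 250 bases before each annotated start (GRCh38.p14), and 34 of the 37 genes matched an entry. SLC2A3, SLC16A1 and PFKFB2 had none. ACGTG, the core of the hypoxia response element, was present upstream of at least 1 start in 18 of 34 genes (52.9%), against 29.5% of the 9100 matched genes of the table. CACGTG, the E-box to which MYC is known to bind, was found for 20.6% against 11.5%, and GGGCGG, the GC box, for 88.2% against 74.8%. By single upstream windows, the hypoxia core was in 33.3% of the 63 windows of these genes, against 22.4% of the 13359 windows of the table's genes and 18.5% of all 35116. The shares for the E-box were 11.1%, 8.35% and 6.34%. The GC box was in 61.9%, 63.0% and 42.6%, so the share of these genes was no higher than that of the table's genes. The E-box contains the hypoxia core, so windows with the E-box count under both. A match is a description of the letters and not a binding site. Of the 5 windows of the genes lower in both sets, 2 held the hypoxia core, none the E-box and 4 the GC box. Of the 8 windows of the genes higher in the CRISPR set, the counts were 2, none and 4. The following stretches of such windows, outside annotated UTRs and coding exons (GENCODE on GRCh37, placed by exact match), are shown for genes that were lower in both sets (TPI1, ENO1 and PRPS1) and genes that were higher in the CRISPR set (SLC16A3 and PGD), so that a reader can compare them. They are written 5′ to 3′ on the gene's strand, with the motifs in capitals on either strand. The stretches of ENO1, TPI1, SLC16A3 and PGD lie within their genes' annotated spans, and that of PRPS1 ends at the base before its gene.
TPI1 (chr12:6977019-6977263, plus strand): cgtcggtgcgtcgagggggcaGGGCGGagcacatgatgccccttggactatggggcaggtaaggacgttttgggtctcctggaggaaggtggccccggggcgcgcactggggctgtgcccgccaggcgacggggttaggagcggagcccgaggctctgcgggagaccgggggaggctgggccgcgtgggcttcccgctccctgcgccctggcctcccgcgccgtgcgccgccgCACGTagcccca
ENO1 (chr1:8938780-8938870, minus strand): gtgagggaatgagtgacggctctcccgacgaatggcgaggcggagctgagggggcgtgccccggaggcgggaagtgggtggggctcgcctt
PRPS1 (chrX:106871490-106871657, plus strand): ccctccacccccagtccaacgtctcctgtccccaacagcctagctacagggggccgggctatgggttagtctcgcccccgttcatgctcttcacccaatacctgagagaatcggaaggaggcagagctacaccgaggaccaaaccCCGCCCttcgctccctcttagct
SLC16A3 (chr17:80186668-80186917, plus strand): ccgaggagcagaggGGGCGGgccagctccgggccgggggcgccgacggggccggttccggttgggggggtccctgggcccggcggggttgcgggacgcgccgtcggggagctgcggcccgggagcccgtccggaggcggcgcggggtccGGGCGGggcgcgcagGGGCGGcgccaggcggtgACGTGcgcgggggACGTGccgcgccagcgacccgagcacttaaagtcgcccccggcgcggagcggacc
PGD (chr1:10458871-10459120, plus strand): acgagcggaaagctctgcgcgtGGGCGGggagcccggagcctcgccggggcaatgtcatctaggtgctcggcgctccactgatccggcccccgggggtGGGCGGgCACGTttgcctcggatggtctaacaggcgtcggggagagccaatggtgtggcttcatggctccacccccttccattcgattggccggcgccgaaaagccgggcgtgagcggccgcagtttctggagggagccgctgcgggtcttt
The stretch of ENO1 held none of the motifs, and that of PRPS1 held 1 GC box. Those of TPI1 and PGD each held the hypoxia core once, on the reverse strand. The stretch shown for SLC16A3 held it in 2 places beside 3 GC boxes. Other stretches of SLC16A3, not shown, held GC boxes but no hypoxia core. The stretch of ENO3, also higher in the CRISPR set and not shown, held none of the motifs. GPI, also lower in both sets, had no such stretch, and its window held the hypoxia core once and no GC box. The other window of TPI1, not shown, held 5 GC boxes and no hypoxia core. Motifs were found upstream of genes of both directions.

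Among the transporters, all 4 were called in the CRISPR set, 2 lower and 2 higher, where 49.9% of all tested genes were called. None was called in the shRNA set, where 12.3% of all were. SLC2A1 (GLUT1), the main glucose carrier of proliferating T cells, measured 20.2 and 19.5 FPKM in sh-Ctrl, 16.1 and 17.7 in CBAP knockdown, 21.8 and 22.6 in CBAP-reconstituted and 13.2 and 13.5 in CBAP knockout libraries. The knockout libraries were the lowest of all. SLC2A1 fell by 40.0% in the CRISPR set (log2 change -0.70, SE 0.0642, adjusted p = 0.000613), while the change in the shRNA set missed the threshold (95% CI -0.38 to -0.06, adjusted p = 0.082). SLC2A3 (GLUT3), a carrier of high glucose affinity, measured 2.0 and 2.36 FPKM in sh-Ctrl, 2.86 and 1.61 in CBAP knockdown, 2.51 and 2.51 in CBAP-reconstituted and 6.36 and 6.16 in CBAP knockout libraries. Knockout libraries stood above the other 6, which overlapped. SLC2A3 rose in the CRISPR set (log2 change 1.05, SE 0.186, adjusted p = 0.00609), a ratio of means of 2.49, and its changes differed between the sets (-1.05, adjusted p = 0.03).

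SLC16A1 (MCT1) and SLC16A3 (MCT4) carry lactate across the plasma membrane. SLC16A1 measured 46.6 and 53.9 FPKM in sh-Ctrl, 45.8 and 46.0 in CBAP knockdown, 55.4 and 54.7 in CBAP-reconstituted and 45.2 and 45.3 in CBAP knockout libraries, and fell by 17.7% in the CRISPR set (adjusted p = 0.0245). SLC16A3 measured 10.8 and 8.61 FPKM in sh-Ctrl, 12.2 and 7.57 in CBAP knockdown, 2.64 and 2.28 in CBAP-reconstituted and 6.68 and 6.30 in CBAP knockout libraries. It rose in the CRISPR set (log2 change 1.12, SE 0.217, adjusted p = 0.00845), where the reconstituted cells were the lowest condition, and the knockout cells did not reach the level of sh-Ctrl cells. SLC16A1 missed the threshold without any 1 of the 4 CRISPR-set libraries, with adjusted p from 0.0933 to 0.118, and after quantile normalization, where its change was -0.11 (adjusted p = 0.192). SLC16A3 missed it without CBAP-reconstituted replicate 2 (adjusted p = 0.0573). Exons of SLC16A3 overlap those of CSNK1D on the other strand, and whether reads were counted by strand is not given in the sources used here.

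The preparatory steps use ATP to turn glucose into three-carbon sugars. In the shRNA set, all 8 tested genes of these steps had a change below 0 with an unadjusted p under 0.05, as did 20.7% of all tested genes. Of the 8, 2 were called, GPI and TPI1, against 12.3% of all. The CRISPR set had 5 lower, namely HK2, GPI, PFKP, ALDOA and TPI1, against 25.9% of all tested genes, and none higher, against 23.9%. HK2, a hexokinase that traps glucose in the cell, measured 12.3 and 12.3 FPKM in sh-Ctrl, 10.4 and 10.1 in CBAP knockdown, 17.0 and 15.8 in CBAP-reconstituted and 10.9 and 13.3 in CBAP knockout libraries. It fell by 26.2% in the CRISPR set (log2 change -0.41, adjusted p = 0.0161) from the highest level of the 4 conditions. HK1, the hexokinase of most tissues, had 20.9 and 18.1 FPKM in sh-Ctrl, 15.8 and 16.1 in CBAP knockdown, 16.8 and 17.2 in CBAP-reconstituted and 18.5 and 18.1 in CBAP knockout libraries. It was called in neither set, with adjusted p of 0.0743 and 0.322, but its changes differed between them (-0.37, SE 0.107, adjusted p = 0.0456).

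Phosphofructokinase commits sugar to glycolysis. PFKP, the platelet-type subunit and the most abundant of the family here, measured 95.4 and 103 FPKM in sh-Ctrl, 89.1 and 89.7 in CBAP knockdown, 105 and 106 in CBAP-reconstituted and 61.8 and 64.6 in CBAP knockout libraries. PFKP fell by 40.0% in the CRISPR set (log2 change -0.73, SE 0.0551, adjusted p = 0.00032), and the changes of the sets differed (0.58, adjusted p = 0.00441). PFKL, the liver-type subunit, had 32.4 and 29.0 FPKM in sh-Ctrl, 26.4 and 25.7 in CBAP knockdown, 26.8 and 27.2 in CBAP-reconstituted and 24.6 and 23.5 in CBAP knockout libraries. It was called in neither set (adjusted p = 0.082 and 0.0889). PFKM, not tested, was at 0.724 and 0.695 FPKM in sh-Ctrl, 0.675 and 0.560 in CBAP knockdown, 1.31 and 1.2 in CBAP-reconstituted and 0.933 and 0.693 in CBAP knockout libraries.

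Aldolase cleaves the six-carbon sugar. ALDOA had means of 497 FPKM in sh-Ctrl, 429 in CBAP knockdown, 544 in CBAP-reconstituted and 458 in CBAP knockout cells. It was called lower in the CRISPR set (log2 change -0.25, adjusted p = 0.015), where quantile normalization turned the sign to 0.15 (adjusted p = 0.0744). ALDOC, the brain-type aldolase, was at 23.6 and 14.8 FPKM in sh-Ctrl and 11.2 and 9.08 in CBAP knockdown libraries, which did not overlap. Its change there was not called (adjusted p = 0.0606, 95% CI -1.35 to -0.30), and its means were 20.1 and 21.2 FPKM in the CRISPR set. HK2 and ALDOA missed the threshold of the CRISPR set when either CBAP-reconstituted library was left out (adjusted p from 0.0567 to 0.102). CBAP knockout replicate 1 was also needed for both (0.0594 and 0.0795), and replicate 2 for ALDOA (0.0687).

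The payoff steps recover ATP and end in pyruvate. GAPDH measured 2025 and 2058 FPKM in sh-Ctrl, 2399 and 2065 in CBAP knockdown, 2697 and 2793 in CBAP-reconstituted and 2798 and 2065 in CBAP knockout libraries. The 2 knockout libraries were further apart than the lowest and the highest condition means, and GAPDH was called in neither set (adjusted p = 0.623 and 0.336). GENCODE holds 65 pseudogenes named for GAPDH and 13 for PGAM1, so their values are uncertain. PGK1, which makes the first ATP of the pathway, had 261 and 259 FPKM in sh-Ctrl, 297 and 307 in CBAP knockdown, 247 and 249 in CBAP-reconstituted and 212 and 229 in CBAP knockout libraries. Knockdown libraries were above their controls and knockout libraries below theirs. PGK1 was called lower in the CRISPR set (log2 change -0.17, adjusted p = 0.0421; 0.10 with adjusted p = 0.178 after quantile normalization) and not called in the shRNA set (adjusted p = 0.0544). The changes of the sets differed (0.38, SE 0.0746, adjusted p = 0.0138). The shRNA-set change of PGK1 passed the threshold after quantile normalization and after median centring. PGK1 shares exon bases with ATP7A in the annotation.

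Of the 3 enolases, ENO1 fell in both sets as given above, and the other two were higher in CBAP knockout than in CBAP-reconstituted libraries, with ENO3 past the threshold. ENO2, the neuron-type enolase, measured 58.5 and 48.2 FPKM in sh-Ctrl, 41.0 and 49.5 in CBAP knockdown, 61.1 and 59.1 in CBAP-reconstituted and 80.0 and 75.6 in CBAP knockout libraries. Its changes differed between the sets (-0.60, SE 0.174, adjusted p = 0.0457), and neither change was called alone (adjusted p = 0.269 and 0.052). ENO3, the muscle-type enolase, measured 3.08 and 3.10 FPKM in sh-Ctrl, 2.52 and 3.18 in CBAP knockdown, 3.22 and 3.13 in CBAP-reconstituted and 6.35 and 5.17 in CBAP knockout libraries. ENO3 rose in the CRISPR set (log2 change 0.69, SE 0.123, adjusted p = 0.00617), where the knockout libraries stood above all others. Its exons overlap those of PFN1 on the other strand.

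PKM, pyruvate kinase, makes pyruvate and ATP. It measured 480 and 558 FPKM in sh-Ctrl, 569 and 532 in CBAP knockdown, 560 and 572 in CBAP-reconstituted and 438 and 441 in CBAP knockout libraries. PKM fell by 22.3% in the CRISPR set (log2 change -0.36, SE 0.081, adjusted p = 0.0135), and the shRNA-set libraries overlapped. Its change moved to -0.03 after quantile normalization (adjusted p = 0.772). PKM was not called without any 1 of the 4 CRISPR-set libraries (adjusted p from 0.0604 to 0.0829). PGK1 was not called without either CBAP-reconstituted library (0.154 and 0.179), CBAP knockout replicate 1 (0.225) or either sh-Ctrl library (0.0556 and 0.0557). PGAM1, phosphoglycerate mutase, was called in neither set and had means of 306 and 232 FPKM in the shRNA set against 78.5 and 76.2 in the CRISPR set.

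Lactate dehydrogenase converts pyruvate and lactate into each other. LDHB, the heart-type subunit, measured 1030 and 1001 FPKM in sh-Ctrl, 817 and 912 in CBAP knockdown, 1099 and 1114 in CBAP-reconstituted and 638 and 763 in CBAP knockout libraries. LDHB fell by 36.7% in the CRISPR set (log2 change -0.67, SE 0.0989, adjusted p = 0.00321; -0.36 with adjusted p = 0.0102 after quantile normalization). In the shRNA set the libraries did not overlap, and the change was not called (adjusted p = 0.181). LDHA, the muscle-type subunit favoured in lactate production, had 488 and 440 FPKM in sh-Ctrl, 391 and 478 in CBAP knockdown, 354 and 359 in CBAP-reconstituted and 287 and 297 in CBAP knockout libraries. LDHA was called in neither set (adjusted p = 0.567 and 0.0663). LDHB was above LDHA in every library.

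The PFKFB enzymes set the level of fructose 2,6-bisphosphate, the activator of phosphofructokinase. PFKFB3 measured 16.4 and 16.8 FPKM in sh-Ctrl, 15.2 and 14.2 in CBAP knockdown, 18.4 and 17.6 in CBAP-reconstituted and 11.2 and 11.1 in CBAP knockout libraries. It fell by 38.2% in the CRISPR set (log2 change -0.65, SE 0.0582, adjusted p = 0.000557), more than in the shRNA set (difference 0.49, adjusted p = 0.00859). PFKFB4 was at 5.73 and 2.90 FPKM in sh-Ctrl, 1.28 and 2.20 in CBAP knockdown, 2.14 and 2.13 in CBAP-reconstituted and 1.79 and 1.82 in CBAP knockout libraries. The sh-Ctrl libraries were the highest and far apart, and PFKFB4 was called in neither set (adjusted p = 0.0905 and 0.675).

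PDK1, which blocks the entry of pyruvate into the citrate cycle, was at 12.3 and 7.49 FPKM in sh-Ctrl, 6.38 and 8.34 in CBAP knockdown, 8.30 and 7.92 in CBAP-reconstituted and 9.30 and 9.77 in CBAP knockout libraries, and was not called (adjusted p = 0.341 and 0.472). Condition means ranged from 3.47 to 4.65 FPKM for PFKFB2, from 25.5 to 29.9 for PGM1 and from 30.5 to 34.1 for PGM2. PGM1 and PGM2 are phosphoglucomutases, which link glycolysis to glycogen and ribose 1-phosphate. BPGM, which makes 2,3-bisphosphoglycerate, measured from 7.90 to 10.5 FPKM over the shRNA set and from 14.1 to 15.8 over the CRISPR set. None of these 4 was called in either set.

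Of the 8 genes of the pentose phosphate route and PRPP synthesis, 2 were lower in the shRNA set (TKT and PRPS1), and 2 were lower (TALDO1 and PRPS1) and 1 higher (PGD) in the CRISPR set. The shares of all tested genes were 8.70% lower in the former, and 25.9% lower and 23.9% higher in the latter. PGD, which makes NADPH in the oxidative branch, measured 145 and 146 FPKM in sh-Ctrl, 148 and 151 in CBAP knockdown, 152 and 161 in CBAP-reconstituted and 191 and 199 in CBAP knockout libraries. PGD rose by 24.3% in the CRISPR set (log2 change 0.31, SE 0.0494, adjusted p = 0.00403; 0.54 with adjusted p = 0.000516 after quantile normalization), with the knockout libraries above all others, and its changes differed between the sets (-0.27, adjusted p = 0.0312). PGLS, the lactonase of the same branch, had condition means from 51.4 to 55.3 FPKM and was not called.

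TKT, transketolase, and TALDO1, transaldolase, return pentoses to glycolysis. TKT measured 293 and 285 FPKM in sh-Ctrl, 240 and 254 in CBAP knockdown, 270 and 272 in CBAP-reconstituted and 245 and 254 in CBAP knockout libraries. TKT fell by 14.5% in the shRNA set (log2 change -0.23, SE 0.049, adjusted p = 0.0409), and its change in the CRISPR set was not called (adjusted p = 0.0948). The call in the shRNA set needed each of 7 libraries, all but CBAP knockdown replicate 2, with adjusted p from 0.0507 to 0.117 when 1 of them was left out. The call was also lost after quantile normalization (-0.15, adjusted p = 0.0736) and in the fit without a trend (adjusted p = 0.0645). TALDO1 measured 161 and 157 FPKM in sh-Ctrl, 153 and 154 in CBAP knockdown, 195 and 194 in CBAP-reconstituted and 163 and 159 in CBAP knockout libraries. TALDO1 fell by 17.3% in the CRISPR set (log2 change -0.27, adjusted p = 0.00326; -0.07 with adjusted p = 0.261 after quantile normalization), from a level above that of both shRNA conditions.

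PRPS2, the second PRPP synthetase, measured 56.0 and 44.7 FPKM in sh-Ctrl, 32.4 and 37.5 in CBAP knockdown, 48.6 and 50.0 in CBAP-reconstituted and 53.5 and 57.3 in CBAP knockout libraries. Knockdown libraries were below their controls and knockout libraries above theirs, and the changes differed (-0.67, SE 0.175, adjusted p = 0.033). Neither change was called alone (adjusted p = 0.0523 and 0.315). RPE and RPIA, the enzymes that interconvert the pentose phosphates, had condition means from 19.8 to 22.0 and from 46.8 to 59.2 FPKM and were not called.

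The changes differed between the sets for 15 of 36 genes (41.7%), against 33.8% of all tested genes. Across the 36 genes, which share their libraries and are not replicates, the changes of both sets were weakly correlated (Pearson's r 0.196, Spearman's rho 0.168), and 23 had the same sign. The number of differing genes was 8 once sh-Ctrl replicate 1 was left out, 3 or 4 once CBAP-reconstituted replicate 1 or 2 was, and 6 or 8 once CBAP knockout replicate 1 or 2 was. Over all tested genes the number that differed between the sets also fell in each of these fits. GPI, PFKP and ENO1 stayed past the threshold with each library left out. Quantile normalization ended 7 of the 15 calls, those of ENO1, HK1, PGK1, PKM, SLC16A3, SLC2A3 and TALDO1, with adjusted p from 0.0921 to 0.515. The sets also differ in the method of CBAP removal and in clone, which cannot be told apart.

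**Figure D3:**
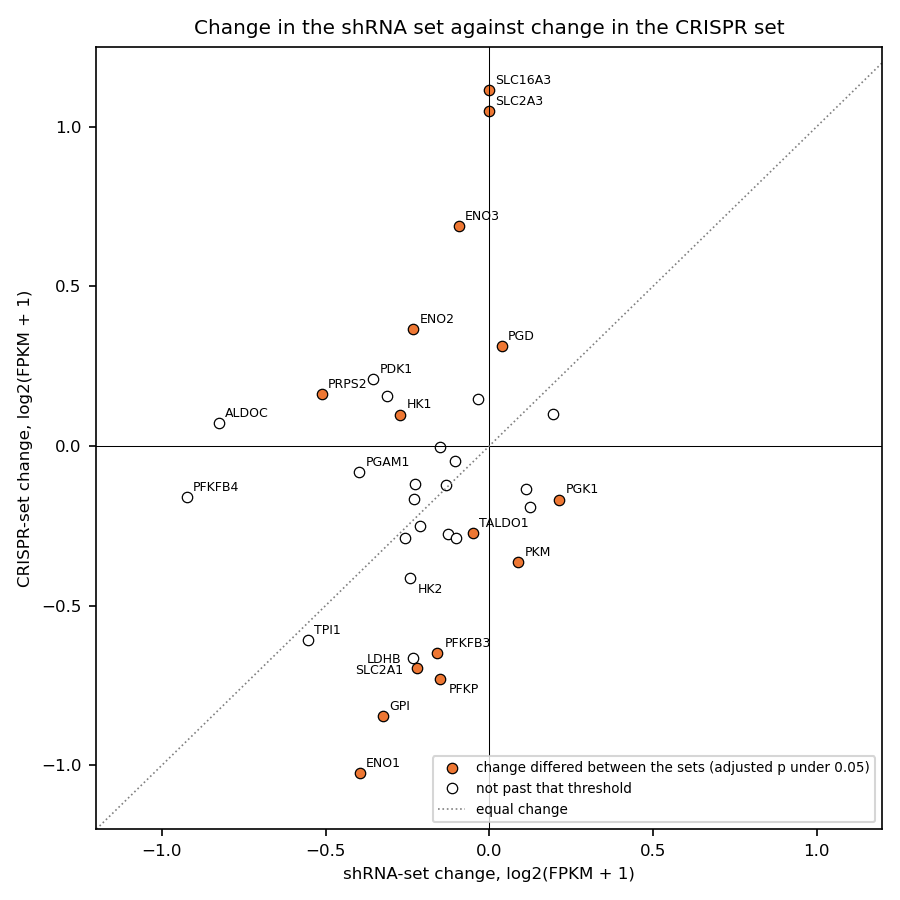
Change of each of the 36 tested genes in the shRNA set (x axis) against that in the CRISPR set (y axis), both on the log2(FPKM + 1) scale; orange points are the 15 genes whose changes differed and the dotted line marks equal change. TPI1 lies near the dotted line, ENO1, GPI and PFKP lie below it, and SLC2A3, SLC16A3 and ENO3 lie far above it; labels are given to the genes with the largest changes or a difference between sets.

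Several steps have more than 1 gene, and each gene's share of the summed FPKM of its family was computed in every library, as a description. SLC2A3 made up 9.89% of the SLC2A1 and SLC2A3 total in sh-Ctrl, 11.7% in CBAP knockdown and 10.2% in CBAP-reconstituted cells, and 31.9% in CBAP knockout cells. ENO2 made up 5.15%, 5.70% and 5.22% of enolase in those conditions and 12.6% in knockout cells, where ENO1 held 86.5%. In both families the knockout libraries did not overlap the other 6. ENO3 stayed a small part, at 0.932% in knockout cells and 0.276% to 0.359% elsewhere.

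In other families the CBAP-reconstituted or the CBAP knockout cells stood apart. HK2 was 49.1% of the HK1 and HK2 total in CBAP-reconstituted cells and 38.8% to 39.8% in the other conditions. LDHA was 24.4% of lactate dehydrogenase in CBAP-reconstituted, 29.5% in CBAP knockout and 31.3% and 33.4% in sh-Ctrl and CBAP knockdown cells. SLC16A3 was 4.28% of the monocarboxylate transporters in CBAP-reconstituted cells and 12.5% to 17.6% elsewhere. PFKL ranged from 20.2% to 27.3% of phosphofructokinase and PRPS2 from 41.4% to 51.4% of PRPP synthetase, each highest in knockout cells, and ALDOA held 95.6% to 97.7% of aldolase.

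The CBAP-expressing controls of the 2 sets were also compared, a contrast that follows the set and in which method, clone and processing cannot be told apart. Of 36 genes, 8 (22.2%) differed between CBAP-reconstituted and sh-Ctrl cells, against 39.4% of all tested genes. PGAM1 was the most different, at 287 and 325 FPKM in sh-Ctrl and 79.3 and 77.6 in CBAP-reconstituted libraries (log2 difference -1.95, SE 0.218, adjusted p = 0.00208). SLC16A3 (-1.62) and LDHA (-0.38) were also lower in CBAP-reconstituted cells, while HK2 (0.38), GPI (0.32), BPGM (0.54), TALDO1 (0.29) and ENO1 (0.15) were higher. ENO1 turned to -0.04 after quantile normalization (adjusted p = 0.604), which ended the calls of GPI (0.13, adjusted p = 0.156) and HK2 (0.24, adjusted p = 0.154) and moved the median of all genes in this contrast from 0.17 to 0.05. The median of the 36 genes was 0.09. Fewer of the 36 genes, and fewer of all tested genes, differed without sh-Ctrl replicate 1 or either CBAP-reconstituted library. More of both differed without either CBAP knockdown library. Without sh-Ctrl replicate 2, more of the 36 but fewer of all tested genes differed. PGAM1, SLC16A3 and TALDO1 stayed past the threshold whichever library was left out.

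A further list of 47 genes of the same pathways held 25 that could be tested. In the shRNA set limma called none, though 5 (20.0%) had an unadjusted p under 0.05, against 30.3% of all tested genes. The CRISPR set gave 8 higher and 2 lower, which is 40.0% of the 25 against 49.9% of all tested genes. Changes differed between the sets for 6 of the 25 (24.0%), against 33.8%. Of these, H6PD, which runs the oxidative pentose steps in the endoplasmic reticulum, had condition means of 2.87 and 2.03 FPKM in sh-Ctrl and CBAP knockdown and 2.95 and 8.01 in CBAP-reconstituted and CBAP knockout cells (difference -1.54, adjusted p = 0.00136). SLC16A7 (MCT2), a further lactate carrier, had 4.45, 5.14, 3.49 and 7.17 FPKM in the same order (-0.69, adjusted p = 0.0105). IDNK, a gluconokinase, had 2.48, 2.28, 2.30 and 5.58 FPKM (-1.09, adjusted p = 0.0165). PDP1, the phosphatase that reverses the block set by PDK1, had 5.93, 5.62, 6.47 and 9.14 FPKM (-0.51, adjusted p = 0.0168). PGAM4, a near copy of PGAM1 whose reads may be shared with it, had 8.31, 6.80, 5.76 and 2.31 FPKM (0.77, adjusted p = 0.0026). PRPSAP2, a partner protein of the PRPP synthetases, had 25.6, 25.8, 31.8 and 24.8 FPKM (0.36, adjusted p = 0.0143). Of the 6, 4 had their highest mean in CBAP knockout cells, and PGAM4 and PRPSAP2 their lowest.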

How the data were processed

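RNA of 8 Jurkat libraries was sequenced as 100-bp paired-end reads. The authors aligned reads to hg19 with TopHat 2 and computed FPKM with cuffdiff of the Cufflinks package, and the submitters' processing notes also name CASAVA 1.8 and Bowtie. The deposited table holds FPKM, 1 column per library (0 value columns were left unused). The Cufflinks version, the annotation and the scaling between libraries are not given in the sources used here. From the deposited FPKM, log2(FPKM + 1) was tested in limma 3.58.1 (R 4.3.3): 1 mean per condition over all 8 libraries, empirical Bayes with trend, mean FPKM of at least 1, Benjamini-Hochberg adjustment over all 11427 tested genes. The test within each set was checked on simulated data with known changes. Its error rates for the changes found in these 8 libraries were not tested. Every gene of the list is named; values per library are given for genes called in both sets, genes whose changes differed between sets and a fixed list of steps. The members and lists were chosen with earlier results of these data known. Same-numbered libraries were not treated as pairs, since no label ties them. Python 3.11.15, numpy 2.4.6 and pandas 2.3.3 were used. Upstream windows and motifs came from RefSeq, and positions from GENCODE on GRCh37.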

Additional observations from a re-analysis of the deposited data

Results flagged for a closer look

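For 15 genes the change in the shRNA set differed from that in the CRISPR set in limma (adjusted p under 0.05), each with 2 libraries per condition. The difference, shRNA-set change minus CRISPR-set change on the log2(FPKM + 1) scale, was positive for 8 genes: SLC2A1 (0.475), GPI (0.5214), PFKP (0.5796), PGK1 (0.3828), ENO1 (0.6279), PKM (0.4524), PFKFB3 (0.4882) and TALDO1 (0.2214). It was negative for 7 genes: SLC2A3 (-1.047), SLC16A3 (-1.118), HK1 (-0.3699), ENO2 (-0.5986), ENO3 (-0.781), PGD (-0.2745) and PRPS2 (-0.6742). HK1, PRPS2 and ENO2 changed in neither set beyond the threshold, and PGK1 lay above its control in the shRNA set and below it in the CRISPR set. GPI and PFKP stayed past the threshold under every alternative run, and ENO1 under all but quantile normalization. The other 12 did not stay past it with each library left out.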

How the results depend on the processing

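Under the 18 alternatives, the called changes of single genes kept their direction and side of the threshold in 623 refits, kept direction but missed the threshold in 175, and changed sign in 3. The 3 arose with quantile normalization: ALDOA (0.1521, adjusted p = 0.0744) and PGK1 (0.1016, adjusted p = 0.178) in the CRISPR set, and ENO1 between CBAP-reconstituted and sh-Ctrl cells (-0.03911, adjusted p = 0.604). The cause was not tested. In the shRNA set the 5 calls became 8 with genes listed at 0 in any library left out. Of all 10542 genes then tested, 480 were called higher and 1255 lower. The 5 calls became 0 in a fit on the set's own 4 libraries (9 at an unadjusted p under 0.05 in limma). They became 2 with the replicate block, which lost GPI, PRPS1 and TKT (adjusted p from 0.0599 to 0.0688). The block called 246 higher and 530 lower of all 11427 tested genes. The calls also varied with the library left out. In the CRISPR set the 18 became 28 in a fit on its own 4 libraries. Over all 11427 tested genes, such fits called 3848 higher and 3901 lower in the CRISPR set. In the shRNA set they called 58 higher and 17 lower. The 15 genes whose changes differed ranged from 3 to 16, and the 8 between CBAP-reconstituted and sh-Ctrl cells from 3 to 11, as each library was left out. With the replicate block the counts were 17 in the CRISPR set, 10 for the differing changes and 6 between CBAP-reconstituted and sh-Ctrl cells. Over all tested genes the block called 2548 higher and 2814 lower in the CRISPR set. It called 1609 and 1729 for the differing changes, and 2945 and 1103 between CBAP-reconstituted and sh-Ctrl cells. Same-numbered libraries had correlated deviations of 0.146 between sh-Ctrl and CBAP knockdown and 0.0239 between CBAP-reconstituted and CBAP knockout. Over all tested genes, quantile normalization changed the shRNA-set calls from 414 higher and 994 lower to 845 and 830. Of the 18 calls in the CRISPR set, 10 stayed past the threshold under every alternative run, and none of the 5 in the shRNA set did. Depth is unknown, and the 2 libraries per condition limit the precision; a lone library left in a condition was assumed to vary like the others.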
